A study of Mus musculus with 14 samples.

Results

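Group 8 is 1 of 12 numbered groups of liver nuclei, and its mean profile held the leading genes of hepatic stellate cells, of Kupffer cells and of sinusoidal endothelial cells, in both genotypes. The working name given to it, mixed stellate and Kupffer nuclei, leaves out the endothelium, so it is called by its number here. It was taken as the 2 columns of group 8, 1 for each genotype, out of the 24 columns of the deposited table of mean UMIs (unique molecular identifiers, 1 for each captured RNA molecule). The nuclei came from frozen livers of Ms4a7 knockout (KO) and wild type (WT) mice, which had all been kept for 22 weeks on a diet that brings on fatty liver with inflammation (NASH). For each genotype nuclei of 3 livers were pooled, stained with propidium iodide, sorted by flow cytometry and made into 1 10x Genomics library. Which exons of Ms4a7 were removed, in which cells, and the strain and age of the mice are not given in the sources used here. With 1 library for each genotype there is no replicate, so that levels are given without an error between animals, no difference between KO and WT was tested and no p-value exists for any of them. The 3 livers of a pool cannot be told apart. Groups 2, 3 and 4 recur below: group 2 is stellate-like, group 3 Kupffer-like and group 4 sinusoidal endothelium-like by their marker lists.

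Hepatic stellate cells are the pericytes of the liver. They lie in the space between hepatocytes and sinusoids, store vitamin A as retinyl esters and lay down matrix in fibrosis. Kupffer cells are the resident macrophages of the liver and sit in the sinusoids, where they clear particles, bacteria and old red cells. Sinusoidal endothelial cells are the fenestrated, scavenging endothelium between the blood and the stellate cells, so that the 3 cell types touch each other in the intact tissue. During NASH, recruited macrophages that express Trem2 and Gpnmb take up lipid beside the resident ones.

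The number of nuclei and their UMI totals were not listed in the table but could be recovered from its values, since 1 UMI in 1 nucleus adds a fixed step to a mean. Group 8 held 117 of 6933 KO nuclei (1.69%, exact 95% interval 1.40% to 2.02%) and 128 of 6227 WT nuclei (2.06%, 1.72% to 2.44%), intervals that cover counting error only and overlap. The median total was 6319 UMIs per KO nucleus and 8160 per WT nucleus of group 8, with 10th to 90th percentiles of 3987 to 12157 and 4261 to 20128. Medians of the groups it most resembles were lower in both genotypes. In group 2 they were 3778 in KO and 5056 in WT nuclei, in group 3 they were 3759 and 4107, and in group 4 they were 3141 and 2885. Group 8 thus exceeded group 2 by 1.67 times in KO and 1.61 times in WT, group 3 by 1.68 and 1.99 times, and group 4 by 2.01 and 2.83 times. Of the group 8 nuclei with a recovered total, 105 of 115 KO nuclei (91.3%) and 100 of 123 WT nuclei (81.3%) lay above the median of group 2. The sum of the medians of groups 2 and 3 was 7537 UMIs in KO and 9163 in WT, above the median of group 8 in both. Totals were recovered for 98.3% of KO and 96.1% of WT nuclei of group 8 but for 27.7% to 67.2% of nuclei in groups 2, 3 and 4, where recovered totals of simulated nuclei leaned towards deeper nuclei.

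**Figure D1:**
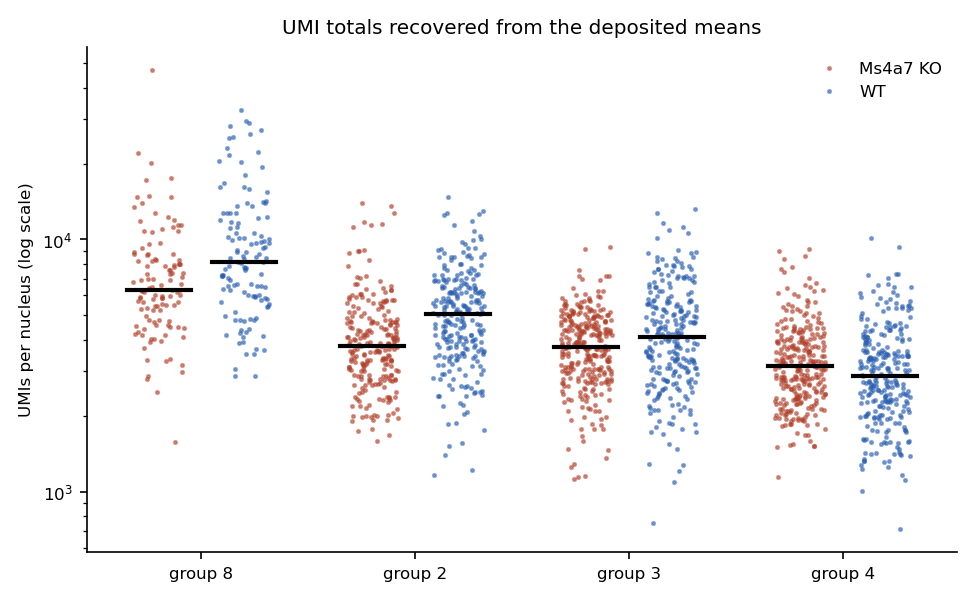
UMIs per nucleus on a log scale in groups 8, 2, 3 and 4, each point 1 nucleus whose total was recovered from the deposited means, Ms4a7 KO in red and WT in blue, bars at the median. The medians of group 8, 6319 in KO and 8160 in WT, lie above those of the other 3 groups.

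The targeted gene was measured first. Ms4a7 (mm10 chromosome 19, 11321039 to 11336146, minus strand), a macrophage gene for a protein with several membrane spans, had a level of 0.162 in KO and 0.423 in WT nuclei of group 8, where a level is the mean number of UMIs per 10000 UMIs of a nucleus. In group 3 it was 0.622 in KO and 1.25 in WT. The KO levels were lower, as the genotype label has it, but not 0, and a count of UMIs over the whole transcript can include parts that were not deleted. These levels correspond to about 11.9 UMIs in all KO nuclei and 44.2 in all WT nuclei of group 8, taking each nucleus at the median total.

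The 6 markers that name the group were all present in both genotypes, and each lay between its level in group 2 and its level in group 3, as did 59.1% of 9376 genes in KO and 59% of 9552 in WT. Of the 4 stellate cell markers, Zfp804b (chromosome 5, 6769010 to 7344756), a zinc finger gene, was 7.90 in KO and 14.1 in WT nuclei of group 8, against 15.2 and 17.9 in group 2. Ntm (chromosome 9, 28994750 to 29963141), which encodes the adhesion molecule neurotrimin, was 10.5 in KO and 9.86 in WT of group 8, against 19.3 and 14.03 in group 2. Nrxn3 (chromosome 12, 88722876 to 90334935), a neurexin of cell contacts, was 16.2 in KO and 15.3 in WT of group 8, against 25.4 and 25.2 in group 2. These levels were below those of group 2 in both genotypes and far above group 3, where the same genes were between 0.04 and 0.16. Colec10 (chromosome 15, 54410774 to 54466358), a secreted collectin that starts the lectin pathway of complement, was 5.54 in KO and 5.37 in WT of group 8, against 10.5 and 7.73 in group 2.

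Both Kupffer cell markers were lower in group 8 than in group 3, by a larger factor than the stellate markers were below group 2. Cd5l (chromosome 3, 87357881 to 87371073), a secreted scavenger protein of tissue macrophages, was 5.57 in KO and 5.61 in WT nuclei of group 8, against 18.3 and 18.8 in group 3. Clec4f (chromosome 6, 83644542 to 83656187), a lectin receptor of mouse Kupffer cells, was 2.997 in KO and 1.554 in WT of group 8, against 9.10 and 4.56 in group 3. The log2 ratio of KO over WT for Clec4f was 0.94 in group 8 and 0.99 in group 3, and for Cd5l it was -0.01 and -0.04.

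**Figure D2:**
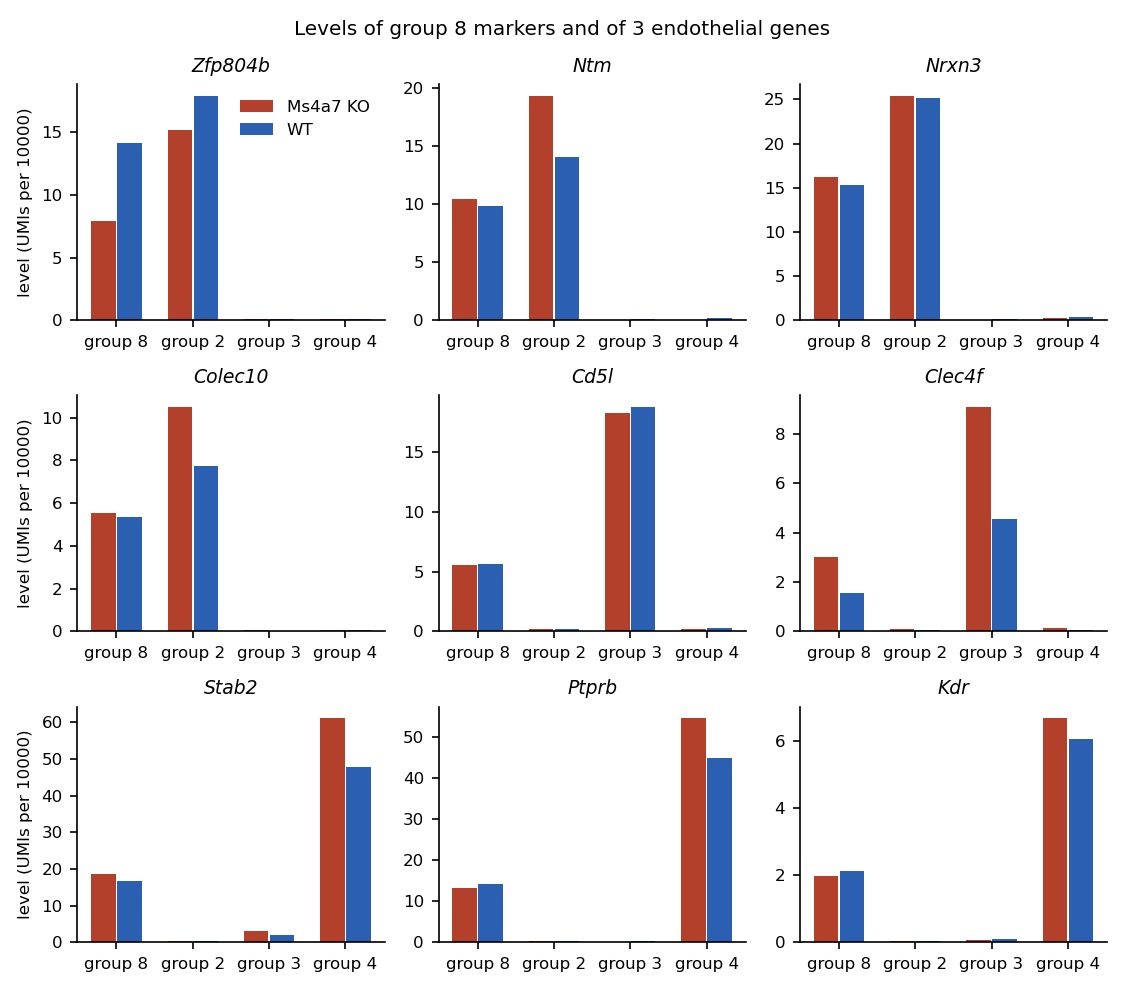
Levels (mean UMIs per 10000) of the 6 markers and of 3 endothelial genes in groups 8, 2, 3 and 4, Ms4a7 KO in red to the left of WT in blue, 1 library each. Group 8 lies between groups 2 and 3 for the 6 markers, and Stab2, Ptprb and Kdr are higher in group 8 than in groups 2 and 3 and highest in group 4.

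The wider marker lists gave the same order. The stellate list and the resident Kupffer list include the markers that name the group, so their counts are not separate from those above. All 26 genes of the stellate list lay between groups 2 and 3 in both genotypes, beside the 59.1% and 59% of all genes above. Genes chosen as high in 1 of these groups and low in the other leave a wide range between. In KO the summed stellate list of groups 0 (9.56), 1 (7.94), 4 (9.05) and 7 (27.9) lay in that range too. Such counts, here and below, are thus descriptions that do not single out group 8, and the share of all genes is a loose yardstick for them. The list summed to 223 in KO and 201 in WT nuclei of group 8, against 418 and 340 in group 2 and 5.22 and 6.13 in group 3, and group 8 ranked 2nd of the 12 groups. Ank3, an ankyrin of the membrane skeleton, was 49.8 in KO and 36.5 in WT of group 8, and reelin (Reln), a secreted glycoprotein of stellate cells, was 29.4 and 21.8. Lrat, which esterifies retinol for storage, was 1.43 in KO and 0.88 in WT, against 2.76 and 2.16 in group 2. Of 20 resident Kupffer cell genes, 19 in KO and 18 in WT lay between groups 2 and 3, and the list summed to 34.1 in KO and 24.9 in WT of group 8, against 97.6 and 69.4 in group 3. The iron exporter Slc40a1 was 6.00 in KO and 4.28 in WT of group 8, against 17.2 and 11.3 in group 3, and the phagocytic receptor Timd4 was 1.37 and 0.81, against 3.80 and 2.38. All 18 pan-macrophage genes lay between groups 2 and 3 in both genotypes, though group 8 ranked 6th of 12 by their summed level, at 33.5 in KO and 27.3 in WT against 117 and 106 in group 3. They included the adaptor Fyb, at 6.35 in KO and 4.75 in WT of group 8 against 21.8 and 19.0 in group 3.

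The functional lists of stellate cells followed their markers. Of 20 collagen and matrix genes, 19 lay between groups 2 and 3 in each genotype, against 59.1% in KO and 59% in WT of all genes, and they summed to 83.4 in KO and 77.7 in WT nuclei of group 8, against 162 and 152 in group 2. Col14a1, a collagen on fibril surfaces, was 11.8 in KO and 10.5 in WT, and the small proteoglycan decorin (Dcn) was 9.47 and 8.83. Genes of synaptic adhesion and axon guidance, many of which stellate cells transcribe, summed to 125 in KO and 117 in WT of group 8, against 219 and 208 in group 2. The guidance receptor Robo2 was 14.1 in KO and 15.1 in WT of group 8, against 29.2 and 42.2 in group 2. Cadm1, an adhesion molecule, belongs to the same list but went with the macrophages, at 4.78 in KO and 5.79 in WT of group 8 against 13.2 and 15.6 in group 3 and 0.55 and 0.66 in group 2. Ligands and receptors through which stellate cells and macrophages act on each other were thus present together in 1 profile. The ligand Il34 was 2.03 in KO and 1.75 in WT of group 8 and its receptor Csf1r 1.73 and 1.21, whereas in group 2 the ligand was 3.21 and 2.93 and the receptor 0.07 and 0.04, and in group 3 the ligand was 0.02 in both and the receptor 6.28 and 4.94.

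A weighted sum of the columns of groups 2 and 3 came near to group 8 for most genes. Weights were fitted for each genotype by non-negative least squares over genes that reached the median level of group 8 (0.171 in KO, 0.146 in WT) in at least 1 of the 3 columns. As shares of their sum, the weights of groups 2 and 3 were 0.629 and 0.371 in KO, and 0.639 and 0.361 in WT. The sum lay within 2-fold of group 8 for 92.1% of 9376 genes in KO and 90.7% of 9552 in WT. On log2 of the level, R squared was 0.785 in KO and 0.792 in WT. Of all 55 pairs of the other 11 groups, groups 2 and 3 gave the highest R squared in each genotype, ahead of groups 2 and 10 at 0.638 in KO and 0.702 in WT, each pair over its own genes. Over 1 set of genes common to all pairs, groups 2 and 3 gave 0.870 in KO and 0.864 in WT, and the next pair was groups 2 and 4, at 0.807 and 0.812. Group 2 alone reached 0.239 in KO and 0.328 in WT. When each of the other 11 groups was fitted with its best pair from the remaining groups, group 8 not among them, R squared had a median of 0.348 in KO and 0.379 in WT. Only groups 0 and 1, the hepatocyte groups, each of which has the other in its pair, passed the value of group 8, at up to 0.861 in KO and 0.919 in WT.

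Group 8 had no gene set of its own. Of 7309 genes at or above the median level in both genotypes, 7 (0.0958%) were highest in group 8 of the 12 groups in both, and 0 of them by 2-fold over the next group. Among the 7 were Rsu1, a cell adhesion regulator, the interferon-induced GTPase Iigp1, and Macf1, which links actin and microtubules, which led the next group by 0.06, 0.02 and 0.01 log2 units in the genotype where the lead was smaller. By the same count, with group 8 left out of the groups compared, every other group had between 53 and 303 genes at 2-fold over the next, with 303 in group 2, 142 in group 3 and 230 in group 4. These counts are descriptions, since the groups were made from the same genes.

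Genes that exceeded both source groups were mostly genes of the endothelium-like group 4. Genes at least 2-fold above group 2 and above group 3 were counted. There were 253 of 7945 genes in KO (3.18%), 266 of 8189 in WT (3.25%), and 185 of 7309 in both genotypes (2.53%). Of these 185, 153 were highest in group 4 in KO and 144 in WT. Of the 7945 genes in KO and the 8189 in WT, 8.61% each were highest in group 4. The 140 that were highest there in both genotypes had a level in group 8 of a median of 0.275 times that of group 4 in KO and 0.326 times in WT. The gene that stood furthest above both was Ushbp1, at 1.43 in KO and 1.09 in WT nuclei of group 8, against 0.02 and 0.01 in group 2 and 0.02 in both genotypes in group 3. It was 5.37 in KO and 4.16 in WT in group 4.

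The other leading genes of this count were mostly known from endothelial cells. Ptprb (chromosome 10, 116275523 to 116389535), the phosphatase VE-PTP of endothelial junctions, was 13.2 in KO and 14.4 in WT nuclei of group 8, against 0.31 and 0.40 in group 2 and 0.21 and 0.33 in group 3, and stood at 54.8 and 44.9 in group 4. Kdr (chromosome 5, 75932827 to 75978458), the main VEGF receptor, was 1.97 in KO and 2.14 in WT of group 8, against 0.07 and 0.09 in group 3. Flt4, the lymphatic VEGF receptor that sinusoids also express, was 1.36 in KO and 1.79 in WT, and F8, coagulation factor VIII, which liver endothelium makes, was 5.55 and 7.27. Each of them was highest in group 4 in both genotypes. Cyyr1, Shank3, Adgrf5, Adgrl4, Emcn (endomucin of the endothelial surface), Stox2, Fgd5, Rasip1, Robo4 and Rasgrp3 completed the leading 15. The smallest ratio among the 15 to the higher of groups 2 and 3 was 23.1, of Rasgrp3 in WT. Robo4 in KO was 0.0032 in group 2, about the 0.0031 that 1 UMI in 1 nucleus of median total is worth there, and at 0 in group 3, so its ratio is not given.

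The sinusoidal endothelium list gave the same result. Of its 15 genes, 14 were at or above the median level in both genotypes, and 11 of those 14 exceeded both group 2 and group 3 by 2-fold in both. By the same rule 185 of all 7309 genes (2.53%) did. The list summed to 58.2 in KO and 56.3 in WT nuclei of group 8, against 4.54 and 4.90 in group 2, 9.42 and 6.98 in group 3, and 200 and 162 in group 4. Group 8 ranked 2nd of 12 in both genotypes. Stab2 (chromosome 10, 86841198 to 87008025), the hyaluronan scavenger receptor of sinusoids, was 18.7 in KO and 16.9 in WT of group 8, against 3.06 and 2.08 in group 3 and 61.2 and 47.7 in group 4. Cdh5, a cadherin of endothelial junctions that stands in both the Kupffer and the endothelium list, was 1.25 in KO and 1.44 in WT of group 8 and highest in group 4, at 3.30 and 3.07.

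With group 4 added to the sum, a choice made after the values were seen, the sum came nearer to group 8 in both genotypes. The shares of groups 2, 3 and 4 were 0.496, 0.262 and 0.242 in KO, and 0.487, 0.240 and 0.273 in WT. R squared was 0.920 in KO and 0.913 in WT, and 96.1% of genes in KO and 94.96% in WT lay within 2-fold. Any other group in the place of group 4 left R squared at 0.792 or less in KO and 0.807 or less in WT. Offered all 11 other groups, the fit gave 0.921 in KO and 0.920 in WT and put no weight on the hepatocyte groups 0 and 1. As a yardstick, group 8 of WT in place of the sum gave 0.837 for KO, and group 8 of KO gave 0.842 for WT. By this measure each genotype's group 8 was nearer to the sum of its own groups 2, 3 and 4 than to group 8 of the other genotype. That second distance also holds the difference between the libraries. The comparison is not on equal terms. The sum had weights fitted to the column and came from groups of 405 to 853 nuclei. The yardstick was not fitted and rested on 117 KO or 128 WT nuclei. Of the 185 genes above both groups 2 and 3, 177 lay within 2-fold of the sum of groups 2, 3 and 4 in both genotypes. No gene of the endothelium list at the median level was within 2-fold of the sum of groups 2 and 3 in either genotype, while all 15 in KO and all 14 in WT were within 2-fold of the sum with group 4.

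**Figure D3:**
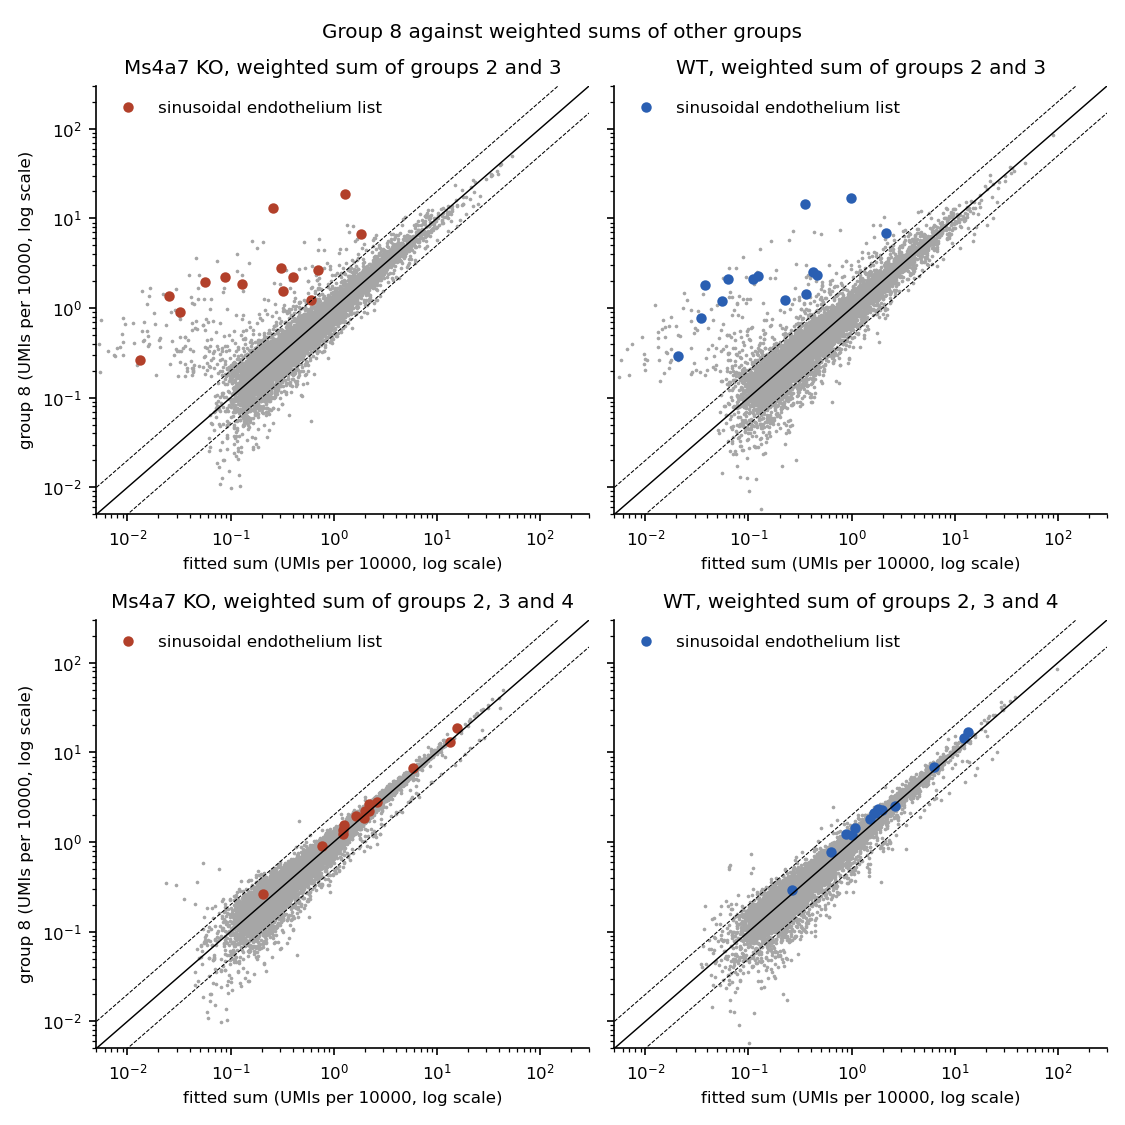
Level in group 8 against the fitted weighted sum, both in UMIs per 10000 on log scales, for genes with both values above 0, Ms4a7 KO left and WT right. The upper plots use groups 2 and 3 and the lower plots groups 2, 3 and 4. The solid line marks equality, dashed lines 2-fold, and coloured points the sinusoidal endothelium list, which lies above the band in the upper plots and within it in the lower ones.

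Genes held by 1 source group alone were compared with that group without a fit. They were taken, after the values were seen, as genes of level 1 or more in a group that exceeded every other group but group 8 by 4-fold in both genotypes. For 91 such genes of group 2, the level in group 8 was a median of 0.518 times that of group 2 in KO (10th to 90th percentile 0.432 to 0.609) and 0.554 times in WT (0.409 to 0.718). For 33 genes of group 3 the median was 0.339 in KO and 0.309 in WT, and for 74 genes of group 4 it was 0.263 in KO and 0.323 in WT. None of these genes was higher in group 8 than in its own group in either genotype. For genes held alone by each of the other 8 groups the median was between 0.00167 and 0.0370. The ratios were higher for genes of group 2 than for genes of groups 3 and 4 by median in both genotypes. Each median was above the fitted weight of its group in the sum of groups 2, 3 and 4. Those weights were 0.491, 0.259 and 0.239 in KO and 0.480, 0.236 and 0.269 in WT. The ratios are thus not shares of 1 profile.

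**Figure D4:**
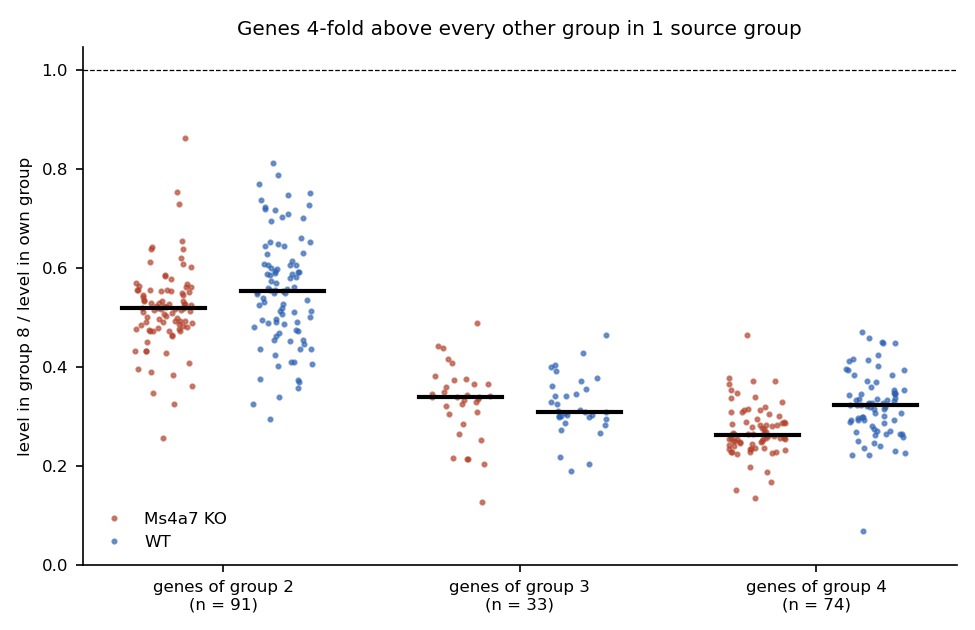
Level in group 8 divided by the level in the gene's own group, for 91 genes of group 2, 33 of group 3 and 74 of group 4, Ms4a7 KO in red to the left of WT in blue, bars at the median. The points lie below 1, highest for group 2 and lower for groups 3 and 4.

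Set against the deeper nuclei of group 8, the same lists came nearer to the source groups in UMIs per nucleus. A nucleus of median total held about 141 UMIs of the stellate list in KO and 164 in WT nuclei of group 8, against 158 and 172 in group 2. For the Kupffer list the figures were 21.5 in KO and 20.3 in WT of group 8, against 36.7 and 28.5 in group 3, and for the endothelium list 36.8 and 45.9 of group 8, against 62.8 and 46.7 in group 4. A mean over nuclei does not show which nuclei hold which genes. Single nuclei, or droplets with several nuclei, that carry the profiles together and a group that collects nuclei of 3 kinds cannot be told apart in these values. How doublets were treated is not given in the sources used here, and no doublet caller can be run on means.

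More genes lay below than above the sum of all 3 groups. There were 296 genes in KO and 383 in WT at 2-fold below the sum of groups 2, 3 and 4, and 73 in KO and 98 in WT at 2-fold above it. Of the genes above both groups 2 and 3 in both genotypes, 4 were also 2-fold above group 4 in both, and these 4 were highest in group 6 or group 9, the groups that lead in T cell and B cell genes. Skap1, an adaptor of T cell adhesion, was 0.58 in KO and 0.50 in WT nuclei of group 8, against 0.06 and 0.09 in group 3 and 36.6 and 34.1 in group 6. Stat4, the transducer of interleukin 12, was 0.35 in KO and 0.19 in WT, Ikzf3, a lymphocyte transcription factor, was 0.36 and 0.56, and the gene model Gm2682 was 0.33 and 0.52. These 4 are named because the count is small and were picked after their values were seen. Among more abundant genes, Ebf1, the B cell commitment factor, was 0.76 in KO and 2.47 in WT of group 8, against a sum of 0.41 in KO and 0.67 in WT. Next in this order were Adgb, Lpcat2 and Fam129a, of which Adgb and Fam129a were highest in group 3. Adgb was 3.16 in KO and 1.84 in WT, against sums of 2.02 and 1.16. Further down, Bank1, a B cell adaptor, was 3.60 in KO and 4.17 in WT, against sums of 2.80 and 2.09. Wdfy4, needed for cross-presentation in dendritic cells, was 1.17 and 1.74, against 0.86 and 0.72. In KO the sum of groups 2 and 3 alone was 3.78 for Bank1, above its level in group 8, and 1.16 for Wdfy4, near its level. In the fit on all 11 groups the share of group 9 was 0 in KO and 0.0156 in WT, and that of group 6 was 0.0026 in KO and 0.0020 in WT.

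Markers of other cell types were partly present in group 8. Of all genes, 20% were listed at 0 in both genotypes. Of the 10 mesothelial genes 6 were, among them Upk3b and Msln, and of 8 smooth muscle genes 3 were, Cnn1, Actg2 and Myocd. The lists of neutrophils (2 of 10), portal fibroblasts (1 of 12), bile duct cells (1 of 10), T or NK cells (1 of 12) and dendritic cells (1 of 10) had shares at 0 no higher than that of all genes. Krt19 stands in both the mesothelial and the bile duct list. The smooth muscle list summed to 1.20 in KO and 0.88 in WT nuclei of group 8, against 2.34 and 1.44 in group 2. The neutrophil list summed to 0.60 in KO and 0.58 in WT nuclei of group 8, and the T or NK cell list to 1.45 and 1.33. The mesothelial list summed to 6.495 in KO and 8.362 in WT, nearly all of it the ephrin Efna5, which was 14.2 and 15.9 in group 2. The cholangiocyte list summed to 4.02 in KO and 8.94 in WT, mostly the RNA-binding protein gene Bicc1, at 3.71 and 6.08, against 6.99 and 13.8 in group 2. Of 15 genes of activated stellate cells and myofibroblasts, 12 lay between groups 2 and 3 in each genotype, beside 59.1% in KO and 59% in WT of all genes. Only 7 of the 15 were at or above the median level of group 8 in both genotypes. The list summed to 10.1 in KO and 12.8 in WT, against 21.1 and 29.0 in group 2.

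Both hepatocyte lists had their lowest summed level of the 12 groups in group 8, in both genotypes. Only 21 of 5617 genes (0.374%) were at least 2-fold below both groups 2 and 3 in both genotypes. They included the plasma proteins Hpx, which binds haem, Hp, which binds haemoglobin, and Fgg, a fibrinogen chain, as well as the liver enzymes Hsd17b13, Aox3, Cyp3a25, Rdh7 and Otc. The 20 hepatocyte plasma protein genes summed to 63.8 in KO and 25.4 in WT nuclei of group 8, against 103 and 38.2 in group 2, 139 and 63.6 in group 3, and 138 and 59.4 in group 4. None of these groups consists of hepatocytes. Per nucleus of median total, the same list came to 40.3 UMIs in KO and 20.7 in WT of group 8, against 38.9 and 19.3 in group 2, 52.3 and 26.1 in group 3, and 43.3 and 17.1 in group 4, so that the difference in level was not seen in UMIs per nucleus against groups 2 and 4. Albumin (Alb) was 8.22 in KO and 3.13 in WT of group 8, against 15.6 and 5.40 in group 2. Mitochondrially encoded genes were also under the sum of groups 2 and 3, with a median log2 ratio of -0.74 in KO and -1.20 in WT. Among abundant genes the farthest under that sum in both genotypes were Apoa1, the main HDL protein, at 2.17 in KO and 0.865 in WT of group 8 against sums of 4.29 and 1.75, then Alb, Mup20, Mup3, the pyrimidine-degrading enzyme Dpyd, mt-Cytb, mt-Co3, Ttr, Serpina1c and Apoa2. The summed level of the mitochondrial list was 70.9 in KO and 46.6 in WT, against 99.5 and 74.99 in group 2 and 169 and 183 in group 3. Per nucleus of median total it came to 44.8 UMIs in KO and 38.1 in WT of group 8, against 37.6 and 37.9 in group 2. In group 3 it was 63.4 and 75.1, and in group 4 it was 58.1 and 43.5. By this measure the list was not lower in group 8 than in group 2.

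The KO and WT columns of group 8 were compared for 8760 genes whose mean level reached 0.132, as log2 ratios of KO over WT with a pseudocount of 0.00748. A gene below 0.132 in 1 genotype entered only through the other, so that its direction, though not its size, followed from the minimum. Among genes given below, Wnt2, Ccl2, Negr1 and Slit3 were under it in WT. At 1 log2 unit or more, 455 genes were higher in KO (5.19%) and 223 lower (2.55%), and the median ratio was 0.02. Among the 2000 genes of highest level, 23 were higher and 6 lower. Of the genes past 1 log2 unit, 67.1% were higher in KO, and with no minimum level 56.7% were. No test was possible, and the same rule called 388 higher and 191 lower of 9234 genes in group 2, 266 and 154 of 8954 in group 3, and 350 and 205 of 8729 in group 4.

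The stellate and endothelial profiles of group 8 had median ratios near 0, while those of the macrophage lists lay further from it. Of the 26 stellate genes, 2 were higher in KO and 0 lower by this rule, with a median log2 ratio of 0.10. These were the transcription factor Hand2, at 0.54 in KO and 0.24 in WT, and Angptl6, at 0.50 and 0.24. Of 15 endothelial genes, 1 was higher (the ligand Wnt2, 0.41 in KO and 0.11 in WT) and 0 lower, with a median of -0.02. Of all genes compared, 5.19% were higher in KO and 2.55% lower, and the stellate and endothelial counts are near these shares. All 20 collagen and matrix genes stayed within 1 log2 unit, with a median of 0.04. Lama2, a laminin chain, came nearest to the rule, at 1.73 in KO and 3.41 in WT (-0.98), and was 4.01 and 9.24 in group 2 (-1.20).

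Recruited and lipid-associated macrophage genes were lower in KO or stayed within 1 log2 unit. Ms4a7 itself is a member and, by a choice made after the values were seen, was left out of the count. Of the other 14 compared, 6 were lower in KO and 0 higher, beside 2.55% lower and 5.19% higher of all genes compared. Their median log2 ratio was -0.81. Gpnmb, Atp6v0d2, Itgax and Spp1 were below 0.132 in KO and entered through WT, so that their direction followed from the minimum level. Mmp12 and Cd9, the others of the 6, were above it in both genotypes. For the same 14 genes the median was -0.59 in group 2, -0.41 in group 3, -0.90 in group 4 and -0.36 for the fitted sums of groups 2, 3 and 4. Gpnmb (chromosome 6, 49036546 to 49070929), which encodes a transmembrane glycoprotein of foamy macrophages, was 0.05 in KO and 0.68 in WT nuclei of group 8, a log2 ratio of -3.46, against 1.67 and 3.45 in group 3 (-1.04). The levels in group 8 stand for about 4.04 UMIs in KO and 70.7 in WT over all nuclei. Mmp12, the macrophage elastase, was 0.20 in KO and 1.15 in WT (-2.49), against 1.54 and 4.29 in group 3 (-1.47). Atp6v0d2, a subunit of the lysosomal proton pump, was 0.03 in KO and 0.30 in WT (-3.17), and the integrin Itgax was 0.11 and 0.34 (-1.56). The tetraspanin Cd9 was 0.26 in KO and 0.63 in WT (-1.25). Spp1, osteopontin, was 0.10 in KO and 0.86 in WT (-3.00), but it is highest in group 7, which leads in bile duct genes. The lipase Lpl, at 1.31 in KO and 2.07 in WT, the chemokine receptor Ccr2, at 0.41 and 0.52, and the galectin Lgals3, at 0.88 and 0.74, did not reach 1 log2 unit. Trem2 (chromosome 17, 48346401 to 48354147), the lipid receptor of these macrophages, was 0.07 in KO and 0.16 in WT, about 5.24 and 16.7 UMIs, and its log2 ratio of -1.10 passed 1 log2 unit only with the small pseudocount. Trem2 was below the level minimum and is not among the 14.

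Resident Kupffer cell genes were higher in KO or stayed within 1 log2 unit. Of 19 compared, 5 were higher in KO and 0 lower, beside 5.19% higher and 2.55% lower of all genes compared. Their median log2 ratio was 0.51, against 0.63 in group 3 for the same genes. Cd163, Marco and Cd68 were below 0.132 in WT and entered through KO, so that their direction followed from the minimum level. C6 and Id3, the others of the 5, were above it in both genotypes. Cd163 (chromosome 6, 124304656 to 124330527), the haemoglobin scavenger receptor, was 1.28 in KO and 0.07 in WT nuclei of group 8, a log2 ratio of 4.01, against 3.26 and 0.53 in group 3 (2.61). In group 8 that is about 94.5 UMIs in KO and 7.54 in WT. The scavenger receptor Marco was 0.30 in KO and 0.06 in WT (2.15), and Cd68, a lysosomal glycoprotein of macrophages, was 0.24 and 0.08 (1.44), each under 10 UMIs in WT. The complement component C6 was 3.28 in KO and 1.55 in WT (1.08), against 8.28 and 3.55 in group 3. Id3, a transcription factor of Kupffer cell identity, was 1.36 in KO and 0.53 in WT (1.35), and was also higher in KO in groups 3 (1.11) and 4 (1.69). The iron store genes Fth1 and Ftl1 were higher too, at log2 ratios of 1.31 and 1.22, while the transferrin receptor Tfrc was lower (-1.24). The markers Cd5l (-0.01), Vsig4 (0.23) and Adgre1 (0.28) did not reach 1 log2 unit.

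**Figure D5:**
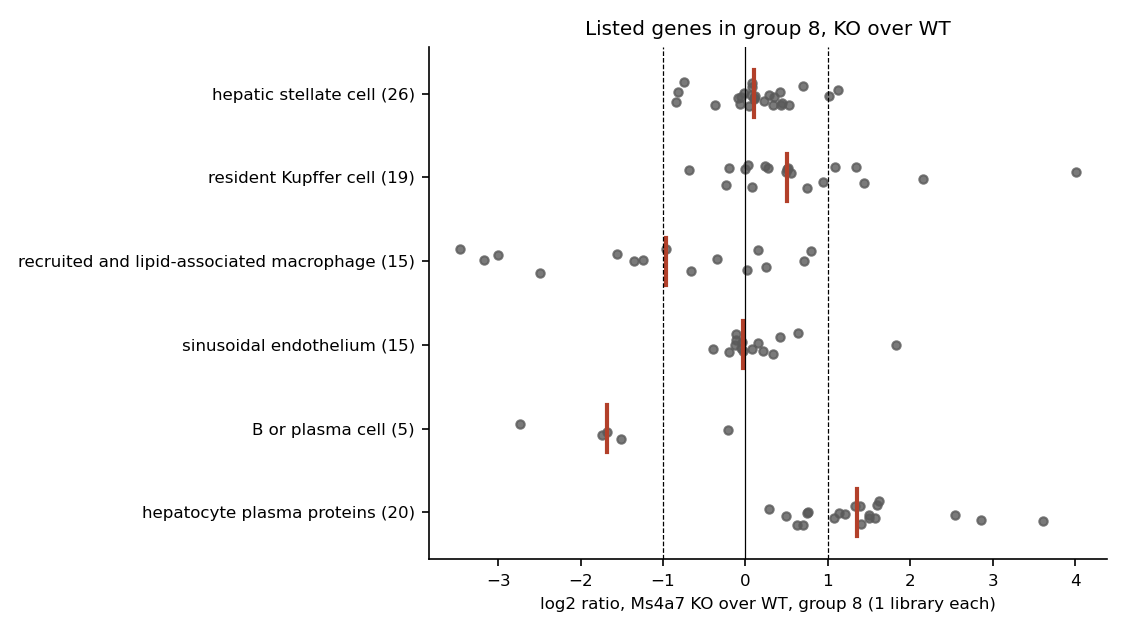
Log2 ratio of Ms4a7 KO over WT in group 8 for the compared genes of 6 lists (number compared in brackets), each point 1 gene, red bars at the median, dashed lines at 1 log2 unit, 1 library for each genotype. Medians were 0.10 for stellate, 0.51 for resident Kupffer, -0.96 for recruited and lipid-associated macrophage genes with the targeted gene Ms4a7 among them, -0.02 for endothelial, -1.68 for B or plasma cell and 1.36 for hepatocyte plasma protein genes.

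The largest ratios among abundant genes were those of hepatocytes. By the rule for named genes these were Mup3, a major urinary protein whose reads can be shared with close copies, at 3.45 in KO and 0.28 in WT nuclei of group 8 (3.61), Serpina3k (2.85), Serpina1c (2.55), the fatty acid binding protein Fabp1 (1.81), Apoc1 (1.62), Apoa2 (1.60) and transthyretin Ttr (1.58). Of the 20 hepatocyte plasma protein genes, 14 were higher in KO and 0 lower, beside 5.19% and 2.55% of all genes compared. Their median log2 ratio was 1.36. The same genes had medians of 1.43 in group 2, 1.18 in group 3 and 1.18 in group 4, and Alb was higher in KO in each, at 1.39 in group 8, 1.53 in group 2, 1.14 in group 3 and 1.25 in group 4. The difference was thus seen in groups that are not hepatocytes. With levels rescaled without Malat1, mitochondrial and plasma protein genes, 454 genes were higher in KO and 216 lower, and the ratio was 1.59 for Ctsh and -1.67 for Ebf1. The lysosomal protease Ctsh (1.57), the membrane protein gene Tmem108, at 2.19 in KO and 0.77 in WT, and the cadherin Pcdh15 (1.41) completed the list of higher genes.

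Among abundant genes lower in KO were Ebf1 (-1.68), the Wnt receptor Ror1 at 0.85 in KO and 2.68 in WT (-1.64), the cadherin-like Clstn2 (-1.15), the myosin Myo1e (-1.04) and the lysosomal protease Lgmn, at 2.37 in KO and 4.76 in WT, followed below 1 log2 unit by Lama2, Nhs, Colec12, Myof and the integrin Itga8 (-0.94). Lower levels of Ror1 in KO were also found in group 2 (-1.43), and of Itga8 likewise (-1.37). B cell genes were mostly lower in KO: of 5 compared, 4 were lower and 0 higher, beside 2.55% and 5.19% of all genes compared. Their median was -1.68. The exception was Bank1 (-0.21), which at 3.60 in KO made up most of the summed list there. The list had 2 genes at the median level of group 8 in KO and 5 in WT. Pax5 and Ighm were below 0.132 in KO and entered through WT, so that their direction followed from the minimum level. Pax5, the identity factor of B cells, was 0.07 in KO and 0.51 in WT of group 8, about 5.14 and 52.9 UMIs, and Ighm, the heavy chain of IgM, was 0.12 and 0.43. The B or plasma cell list summed to 4.76 in KO and 8.35 in WT of group 8, against 180 and 168 in group 9. The adhesion gene Negr1, outside the rule and named after its value was seen, was 1.73 in KO and 0.09 in WT of group 8 (4.17), against 1.64 and 0.82 in group 3 (0.99), about 128 UMIs in KO and 9.35 in WT over all nuclei of group 8.

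Signals between stellate cells and macrophages mostly stayed within 1 log2 unit between the genotypes. Of 21 compared, 3 were higher and 1 lower, beside 5.19% and 2.55% of all genes compared. Their median log2 ratio was 0.05. The macrophage growth factor Csf1 was 1.12 in KO and 0.50 in WT nuclei of group 8 (1.17), the monocyte attractant Ccl2 was 0.42 and 0.11 (1.83), and Bmp10, a ligand that upholds Kupffer cell identity, was 0.33 and 0.14 (1.21). Tgfb2, a profibrotic growth factor, was 0.40 in KO and 0.88 in WT (-1.13). In group 2 the ratios of Csf1, Ccl2, Bmp10 and Tgfb2 were 0.28, 0.84, 1.42 and -0.52.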

How the data were processed

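Nuclei of 3 pooled livers for each genotype gave 2 libraries. Per the submitters' processing notes the tools named are Cell Ranger, Seurat 4.0.1, FastQC, STAR and DESeq2, with build mm10, with no role stated for each. The signal values deposited by the authors are means over the nuclei of a group of UMIs scaled to 10000 per nucleus, as the column sums show. Of 21915 entries 4 with repeated names were dropped. The 12 bulk libraries were not analysed here.

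Weighted sums were fitted by non-negative least squares, with squared residuals divided by the mean level plus a pseudocount (the 5th percentile of values above 0, 0.00978 in KO and 0.00610 in WT) over genes at or above the 50th percentile. Log2 ratios of KO over WT used a pseudocount of 0.00748. Numbers of nuclei and UMI totals were recovered from values that 3 or more genes share, a step added after the data were seen. Intervals for shares are exact (Clopper-Pearson). The scripts were tested on simulated data. Approximate UMIs are the level times the nuclei times the median total. Genes were named by rule: Ms4a7, Trem2, Gpnmb, the 6 markers, leading members of the lists, the 15 farthest above both groups, and the 10 farthest per direction from the sum and between genotypes among the top 2000, without gene models. Further list genes, and the small counts named in full, were chosen after their values were seen. The members and the 29 lists were chosen with earlier results of these data known. Python 3.11.15, numpy 2.4.6, pandas 2.3.3, scipy 1.17.1 and matplotlib 3.10.9 were used.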

Additional observations from a re-analysis of the deposited data

Results flagged for a closer look

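Slit3, a secreted guidance ligand, had a log2 ratio of KO over WT of 1.57 in group 8 and -2.32 in group 4, opposite in sign. Its level in group 8 was 0.217 in KO and 0.0683 in WT, about 16.0 and 7.13 UMIs over all nuclei. With 1 library for each genotype the difference between the groups was not tested.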

How the results depend on the processing

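The share of group 2 in the weighted sum was 0.639 in KO and 0.662 in WT by unweighted least squares, 0.668 and 0.662 on the log2 scale, 0.496 and 0.483 with all 11 groups, and 0.496 and 0.487 with groups 2, 3 and 4. R squared was 0.921 in KO and 0.920 in WT with all 11 groups, 0.920 and 0.913 with groups 2, 3 and 4, 0.899 and 0.895 with no minimum level, 0.853 and 0.845 with a pseudocount 10 times higher, and 0.700 and 0.679 over the top 2000 genes. Genes above both groups 2 and 3 numbered 391 with no minimum level and 103 with the minimum at the 75th percentile. Genes higher and lower in KO numbered 205 and 111 with the pseudocount 10 times higher, 97 and 51 with it at the 50th percentile, 2647 and 2025 with no minimum level, and 77 and 35 with the minimum at the 75th percentile. For genes named by rule in the KO and WT comparison, 160 alternative values kept their side of 1 log2 unit and 8 did not. These were values of Ms4a7 (-0.86), Trem2, Myo1e and Lgmn, and 0 reversed. List genes named after their values were seen, such as Cd163, Mmp12, Atp6v0d2, Pax5 and Negr1, were not run under these settings. The cause was not tested. No paired analysis was possible because each genotype has 1 library. With so few nuclei, levels under about 0.1 rest on few UMIs.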
